A study of Caenorhabditis elegans with 11 samples.

Results

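Neuropeptide-like protein (nlp) genes encode precursor proteins from which short peptide messengers are cut in the nematode Caenorhabditis elegans. The genes described here are those listed with an nlp number on the array, without nlp-27 to nlp-34, which form a cluster of antimicrobial peptide genes of the epidermis. They were 36 of 26763 named genes, each measured by 1 transcript cluster, and 35 had a high enough mean level to be tested. All 36 matched a gene of the RefSeq table. RefSeq now calls nlp-37 pdf-2, nlp-38 mihp-1 and nlp-42 mihp-2, and the names on the array are kept here.

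RNA came from whole animals of the wild-type strain N2, so no mutation or transgene was involved. The 4 groups were animals given indoline carboxylic acid-betacyanin (indoline-betacyanin below; 3 arrays), phenylalanine-betaxanthin (3 arrays) or indicaxanthin (3 arrays), and untreated controls (2 arrays). Betalains are plant pigments in which betalamic acid is joined to an amine or amino acid: proline in indicaxanthin, phenylalanine in phenylalanine-betaxanthin, and a cyclic indoline carboxylic acid in the betacyanin. Larvae of the first stage (L1) aged 16 to 18 h received 25 uM of a compound in liquid medium at 20 °C and stayed in it for 48 h, and the labels describe the animals as young adults 3 days after hatching. Whether the trials of a group were separate cultures is not stated beyond the word independent, and the p-values cover only the variation among these arrays. Levels are log2 values made by the authors with RMA, which adjusts all arrays to a common distribution, and levels are compared only within a gene.

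Neuropeptide precursors are cut by proprotein convertases, trimmed by a carboxypeptidase, often amidated at the end, and stored in dense core vesicles. The peptides are released apart from the synaptic vesicles and mostly act on G protein-coupled receptors of other cells. In C. elegans nlp peptides come from neurons and, for some genes, from intestine or epidermis, and they act in sleep, feeding, egg laying, locomotion and defecation.

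The arrays did not all go with their labels. Yolk protein genes, which the intestine of adult hermaphrodites uses strongly, had a mean log2 level of 10.04, 10.01 and 10.07 with phenylalanine-betaxanthin and 10.09 on indicaxanthin array 3. On the other arrays the mean of these 6 genes was 2.00, 3.17 and 1.67 with indoline-betacyanin, 1.71 and 1.75 on indicaxanthin arrays 1 and 2, and 1.71 and 1.56 in controls, although all groups are labelled young adults. Pearson's r of indicaxanthin array 3 over the 20291 tested clusters was 0.7677 with array 1 and 0.7557 with array 2 of its group. With the arrays of phenylalanine-betaxanthin it was 0.9888 to 0.9939. Results are therefore given with all 11 arrays in 1 fit and again without indicaxanthin array 3. All groups share 1 estimate of the spread, so this array also widens the errors of comparisons that do not use indicaxanthin.

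The nlp genes as a whole were highest with indoline-betacyanin and lowest with phenylalanine-betaxanthin. Their mean log2 level was 6.02, 6.15 and 6.10 on the indoline-betacyanin arrays, 4.28, 4.18 and 4.31 on the phenylalanine-betaxanthin arrays, 5.56, 6.01 and 4.21 on indicaxanthin arrays 1, 2 and 3, and 5.51 and 5.47 in controls. For 14 genes (nlp-6, nlp-7, nlp-8, nlp-10, nlp-11, nlp-12, nlp-13, nlp-14, nlp-15, nlp-18, nlp-21, nlp-35, nlp-38 and nlp-46) all 3 indoline-betacyanin arrays stood above every other array. For nlp-16 they stood below every other array. All 3 phenylalanine-betaxanthin arrays stood below every other array for nlp-6, nlp-11, nlp-14 and nlp-42, and above them for nlp-5. Both controls stood below every other array for nlp-26. The shares of all tested clusters that stood apart in this way were not computed, so these counts do not show that nlp genes stood out. In whole animals, fewer cells of a type and less RNA per cell cannot be told apart.

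**Figure D1:**
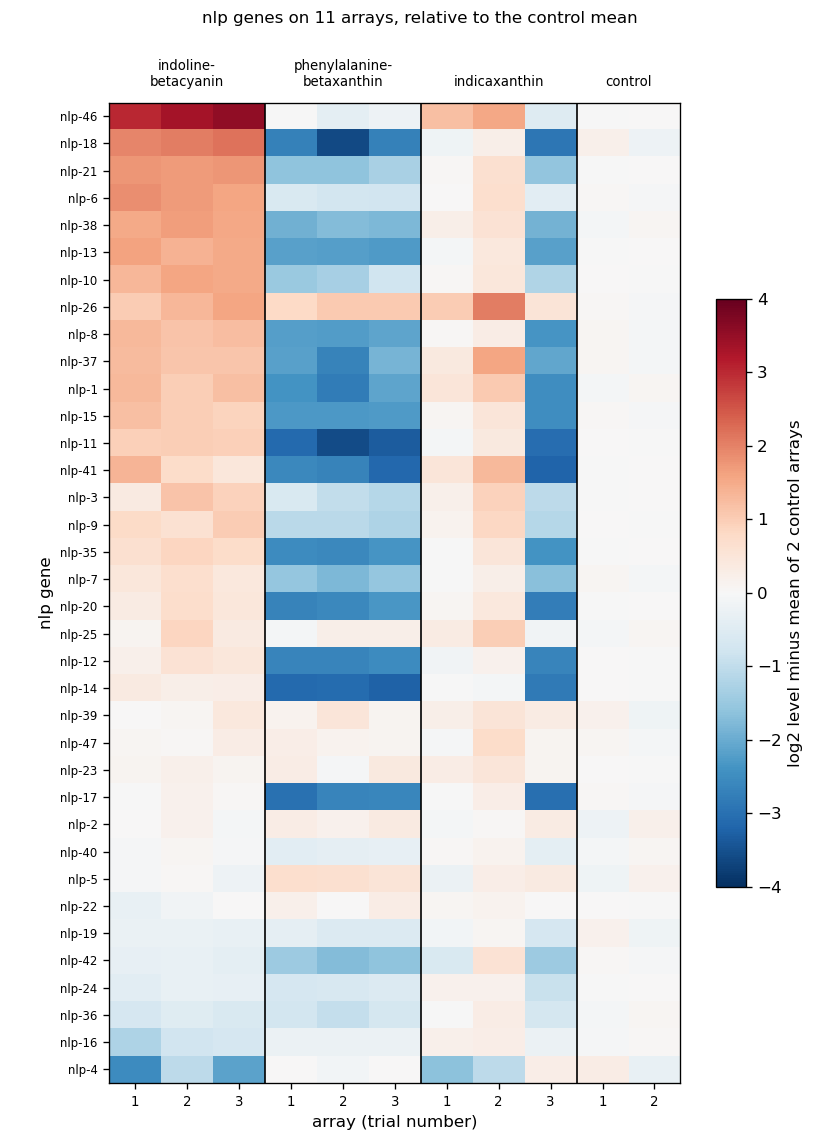
Log2 level of the 36 nlp genes (rows) on each of the 11 arrays (columns, by group and trial number) minus the mean of the 2 control arrays, with red above and blue below that mean. Most rows are red with indoline-betacyanin and blue with phenylalanine-betaxanthin, and indicaxanthin array 3 is coloured like the phenylalanine-betaxanthin arrays.

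The first comparison asks how nlp genes differed between animals given indoline-betacyanin and controls. With this compound 5 nlp genes rose and 2 fell among the 35 tested. Across all tested clusters 7.97% rose and 9.37% fell in this comparison (limma, Benjamini-Hochberg adjusted p under 0.05 over 20291 clusters). The median change of the 35 tested nlp genes was 0.51 on the log2 scale, against 0.02 over all tested clusters, and 27 were above and 8 below 0. Without indicaxanthin array 3, 19 nlp genes rose and 4 fell, against 17.1% and 18.2% of all tested clusters. With control 1 or control 2 left out, 1 control array remained, and fewer nlp genes and fewer of all tested clusters passed. Leaving out any 1 indoline-betacyanin or phenylalanine-betaxanthin array, or indicaxanthin array 1, left 3 or 4 nlp genes past the threshold. In these fits 1132 to 1672 of all tested clusters rose and 1417 to 1957 fell, against 1617 and 1902 with all arrays. With each array centred on its own median, 5 rose and 1 fell. Beside these, 5 of 25 neuronal genes (of synaptic vesicle release and other neuron functions) rose and 0 fell. The mean level of the 25 was 6.04, 5.97 and 5.96 with the compound, against 5.26 and 5.45 in controls. Their part in the result was not tested.

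The gene nlp-46, which is grouped with the RPamide peptide genes, had log2 levels of 5.18, 5.48 and 5.70 with indoline-betacyanin, against 2.14 and 2.17 in controls. The groups were far apart, and the difference was 3.29 (SE 0.51; adjusted p = 0.00209 by limma). For nlp-6 the levels were 7.78, 7.64 and 7.51 with the compound, against 5.97 and 5.89 in controls. This gene rose by 1.71 (SE 0.27; adjusted p = 0.00209 by limma). Both calls held whichever single array was left out, with adjusted p of 2.12e-07 to 0.0245 for nlp-46 and 2.4e-05 to 0.0216 for nlp-6.

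The other genes that rose were nlp-21, nlp-10 and nlp-26. The levels of nlp-21 were 7.03, 6.97 and 7.05 with indoline-betacyanin, against 5.25 and 5.29 in controls, a difference of 1.74 (SE 0.51). For nlp-10 they were 6.95, 7.20 and 7.12, against 5.65 and 5.59 in controls, a difference of 1.47 (SE 0.42). The gene nlp-26, related to the peptide genes of the epidermal cluster, had 5.57, 5.90 and 6.15, against 4.62 and 4.52 in controls, a difference of 1.31 (SE 0.38). The treated and control arrays of these 3 genes did not overlap, and their adjusted p by limma was 0.0472, 0.0424 and 0.0433, in the order named. All 3 calls were lost when control 1 or control 2 was left out, as were those of the genes that fell.

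The gene nlp-4 had log2 levels of 2.07, 3.56 and 2.45 with indoline-betacyanin, against 4.90 and 4.30 in controls. It fell by 1.91 (SE 0.56; adjusted p = 0.0484 by limma) and varied most within its group, with an SD of 0.78. The gene nlp-16 had 1.84, 2.31 and 2.39, against 3.04 and 3.11 in controls, and fell by 0.90 (SE 0.21; adjusted p = 0.016). Its levels lie near the bottom of the array's range, where the 25th percentile of all named clusters is 1.52. The groups did not overlap for either gene.

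A separation of the arrays did not always come with a call. The levels of nlp-18 were 9.35, 9.45 and 9.57 with indoline-betacyanin, against 7.60 and 7.21 in controls. The difference of 2.05 had an SE of 0.78 and did not pass (adjusted p = 0.118 by limma; 0.0001 without indicaxanthin array 3). In all, the arrays did not overlap and were higher with the compound for 23 tested nlp genes and lower for 6, while 31.1% and 29.2% of all tested clusters did so.

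**Figure D2:**
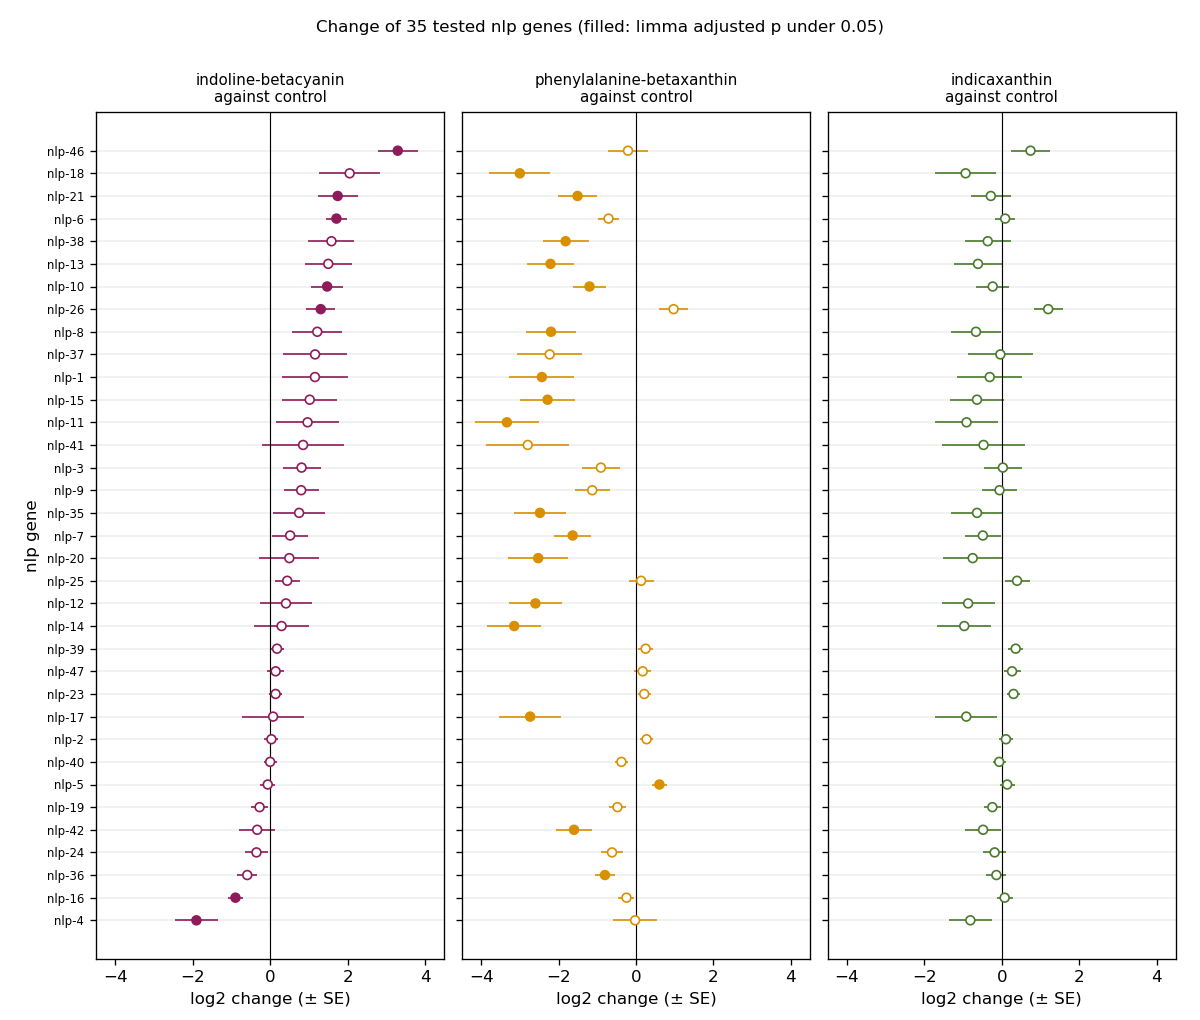
Log2 change against control (horizontal axis; bars are the standard error of limma) for the 35 tested nlp genes in 3 panels, 1 for each compound. Filled points passed an adjusted p of 0.05: 7 with indoline-betacyanin, 18 with phenylalanine-betaxanthin and 0 with indicaxanthin.

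The second comparison sets phenylalanine-betaxanthin against control. Of 35 tested nlp genes, 17 fell and 1 rose, while 22.3% of all tested clusters fell and 22.3% rose. The median change of the tested nlp genes was -1.20, against -0.05 over all tested clusters, with 28 below and 7 above 0. Without indicaxanthin array 3, 25 fell and 2 rose (32.5% and 28.5% of all tested clusters). With control 1 or control 2 left out, 1 control array remained, and most calls were lost among nlp genes and among all tested clusters. Without phenylalanine-betaxanthin array 1, 2 or 3, 1, 1 and 5 nlp genes passed. In these 3 fits 1001, 975 and 2600 of all tested clusters rose and 1634, 1632 and 2397 fell. With all arrays 4517 rose and 4524 fell. Groups that did not overlap were lower with the compound for 27 nlp genes and higher for 3, while 40.5% and 34.9% of all tested clusters did so.

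The largest decrease was that of nlp-11. Its log2 levels were 4.36, 3.87 and 4.13 with phenylalanine-betaxanthin, against 7.49 and 7.43 in controls, and it fell by 3.34 (SE 0.82; adjusted p = 0.0186 by limma). Next came nlp-14, which encodes orcokinin peptides and has been described in stress-induced sleep. It had 3.82, 3.85 and 3.72, against 6.96 and 6.93 in controls, and fell by 3.15 (SE 0.70; adjusted p = 0.0152). The gene nlp-18 had 4.71, 3.80 and 4.71, against 7.60 and 7.21 in controls, and fell by 3.00 (SE 0.78; adjusted p = 0.0206). For each of these genes the treated arrays lay more than 2 log2 units below both controls.

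The gene nlp-12 encodes cholecystokinin-like peptides, which the stretch-sensing neuron DVA releases to adjust body bending. Its levels were 7.14, 7.16 and 7.29 with phenylalanine-betaxanthin, against 9.81 and 9.78 in controls, a decrease with a log2 change of -2.60 (SE 0.68; adjusted p = 0.0208 by limma). The gene nlp-17 had 4.69, 5.05 and 5.08, against 7.72 and 7.62 in controls, with a change of -2.74 (SE 0.80). The gene nlp-20 had 6.25, 6.36 and 6.58, against 8.91 and 8.95 in controls, with a change of -2.53 (SE 0.77). These 3 genes did not overlap between groups.

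The levels of nlp-35 were 5.94, 5.88 and 6.09 with phenylalanine-betaxanthin, against 8.44 and 8.47 in controls, with a change of -2.48 (SE 0.67; adjusted p = 0.0221 by limma). The gene nlp-1, whose peptide is released by the olfactory neuron AWC and acts on the receptor NPR-11, had 3.13, 2.72 and 3.39, against 5.45 and 5.57 in controls. Its change was -2.43 (SE 0.84; adjusted p = 0.0432). The further 9 genes that fell were nlp-15, nlp-13, nlp-8, nlp-38, nlp-7, nlp-42, nlp-21, nlp-10 and nlp-36, with changes of -2.28 to -0.80. The genes nlp-41 (-2.80; adjusted p = 0.0589) and nlp-37 (-2.23; adjusted p = 0.0549) did not pass with all arrays by limma.

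A rise with phenylalanine-betaxanthin was called for nlp-5 alone. It had log2 levels of 2.23, 2.19 and 2.07 with the compound, against 1.40 and 1.72 in controls, a difference of 0.61 (SE 0.20; adjusted p = 0.0349 by limma). The gene stays near the bottom of the range on all arrays. For nlp-26 the levels were 5.37, 5.62 and 5.62, against 4.62 and 4.52 in controls, a difference of 0.97 that did not pass with all arrays (adjusted p = 0.0615) and passed without indicaxanthin array 3 (adjusted p = 0.00699).

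Marker genes of other tissues moved with the same arrays. With phenylalanine-betaxanthin all 6 yolk genes and all 20 germ line and oocyte genes of a marker list rose against control, with median changes of 8.40 and 5.60. The mean level of the germ line genes was 7.99, 7.88 and 7.91 with phenylalanine-betaxanthin, 8.02 on indicaxanthin array 3, and 2.17 to 2.74 on all other arrays. Where 22.3% of all tested clusters moved in each direction, 16 of 27 moulting and epidermal genes fell and 2 rose, and their mean was 4.29, 4.49 and 4.69, against 6.04 and 6.12 in controls. Of 25 neuronal genes (of synaptic vesicle release and other neuron functions) 15 fell and 1 rose. The mean of the 25 was 4.52, 4.60 and 4.54, against 5.26 and 5.45. The part of these markers in the nlp results was not tested. With indoline-betacyanin 0 of 6 yolk and 0 of 20 germ line genes passed with all arrays by limma. Without indicaxanthin array 3, 1 yolk gene rose and 1 germ line gene moved in each direction. Moulting and epidermal genes differed both ways with indoline-betacyanin, and their mean was 5.70, 5.86 and 5.79. The levels of rol-6 were 3.88, 3.84 and 4.07, against 7.04 and 6.74 in controls. Those of fbn-1 were 7.36, 7.31 and 7.32, against 5.12 and 5.24.

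**Figure D3:**
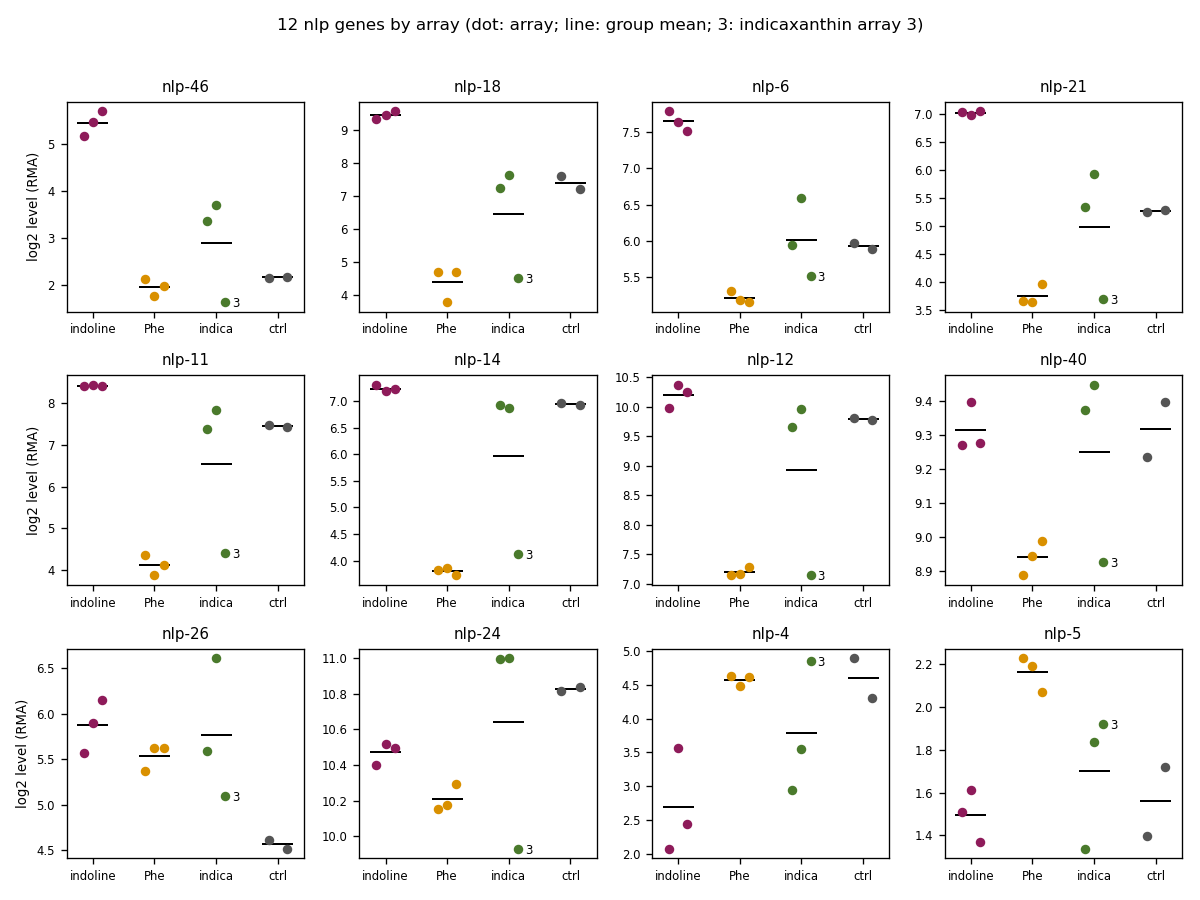
Log2 level (vertical axis, RMA, scale set per gene) of 12 nlp genes on each array, by group, with a line at the group mean and the digit 3 beside indicaxanthin array 3. All 3 indoline-betacyanin dots of nlp-46, nlp-18, nlp-6 and nlp-21 lie above every other dot, and the digit 3 lies near the phenylalanine-betaxanthin dots for nlp-11, nlp-14 and nlp-12.

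The third comparison sets indicaxanthin against control. With all arrays 0 of 35 tested nlp genes passed by limma, while 0.315% of all tested clusters rose and 5.88% fell. Limma with array weights called 2 nlp genes. With all arrays 1 nlp gene had an unadjusted p under 0.05, and the share of all tested clusters under it was not computed. The median change of the tested nlp genes was -0.24 with all arrays and 0.23 without array 3, against 0.05 over all tested clusters in the fit of all arrays. Array 3 was nearer to the mean of the phenylalanine-betaxanthin arrays than to the mean of indicaxanthin arrays 1 and 2 for 34 of 36 nlp genes. Its median distance was 0.138 log2 units to the one and 1.61 to the other. The median SD within the group was 1.01 with array 3 and 0.279 without it, against 0.124 for indoline-betacyanin, 0.137 for phenylalanine-betaxanthin and 0.0689 for control.

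Without array 3, nlp-46 and nlp-26 rose and 0 fell, against 3.04% and 7.45% of all tested clusters. The levels of nlp-46 were 3.37, 3.70 and 1.63 on indicaxanthin arrays 1, 2 and 3, against 2.14 and 2.17 in controls. The difference was 0.74 (adjusted p = 0.491 by limma) with array 3 and 1.38 (SE 0.20; adjusted p = 0.000835) without it. For nlp-26 the levels were 5.59, 6.61 and 5.10, against 4.62 and 4.52 in controls, so that all 3 arrays lay above both controls. The difference was 1.198 (adjusted p = 0.126) with array 3 and 1.53 (SE 0.29; adjusted p = 0.00486) without it.

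The other genes of smallest p in the fit of all arrays were nlp-39 (a difference of 0.36), nlp-23 (0.30) and nlp-4 (-0.81), with adjusted p of 0.39 to 0.493 by limma. For nlp-4 the levels were 2.95, 3.56 and 4.86 on arrays 1, 2 and 3, against 4.90 and 4.30 in controls, so that arrays 1 and 2 lay below both controls and array 3 between them. Its change without array 3 was -1.35 (adjusted p = 0.0564).

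**Figure D4:**
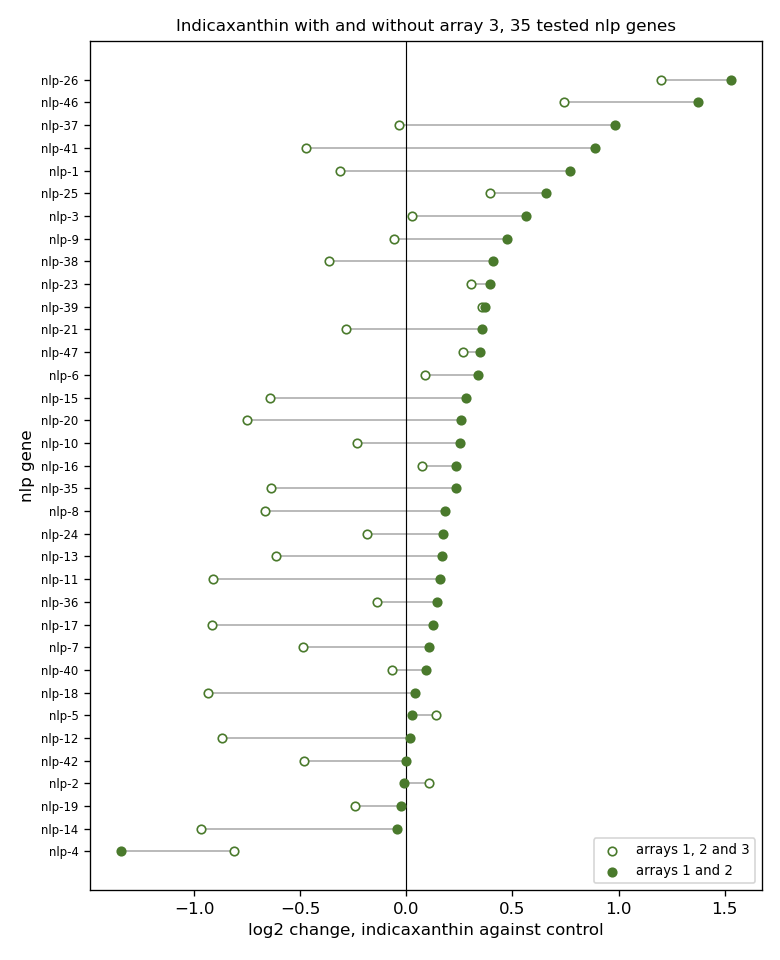
Log2 change of the 35 tested nlp genes with indicaxanthin against control (horizontal axis), from arrays 1, 2 and 3 (open) and from arrays 1 and 2 (filled). The median is -0.24 for the open points and 0.23 for the filled points, and nlp-26 and nlp-46 are the rightmost filled points.

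The compounds were also compared with each other, in 3 pairs at the same dose and time. Between indoline-betacyanin and phenylalanine-betaxanthin, 22 of 35 tested nlp genes were higher with the betacyanin and 3 were lower. Of all tested clusters 23.5% were higher and 23.8% lower. The median difference was 2.42 among the tested nlp genes, against 0.03 over all tested clusters. Without indicaxanthin array 3 the counts were 23 and 3 (29.7% and 29.3% of all tested clusters), and they stayed between 22 and 26 in total whichever array was left out.

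The widest gap was that of nlp-18, which had 9.35, 9.45 and 9.57 with indoline-betacyanin, against 4.71, 3.80 and 4.71 with phenylalanine-betaxanthin. The difference was 5.05 (SE 0.70; adjusted p = 0.0011 by limma). For nlp-11 the levels were 8.41, 8.44 and 8.41, against 4.36, 3.87 and 4.13 with phenylalanine-betaxanthin, a difference of 4.30 (SE 0.73). For nlp-13, which neighbours nlp-9 on its chromosome by RefSeq's gene order, they were 9.06, 8.84 and 8.97, against 5.30, 5.24 and 5.20, a difference of 3.71 (SE 0.54). The neighbour nlp-9 was also higher, by 1.93 (SE 0.40). For nlp-41 the difference was 3.65 (SE 0.96). All 5 genes passed, with adjusted p of 0.0011 to 0.0132.

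The 3 nlp genes that were lower with indoline-betacyanin than with phenylalanine-betaxanthin were nlp-4 (-1.88, SE 0.50), nlp-5 (-0.67, SE 0.18) and nlp-16 (-0.65, SE 0.18). Both nlp-5 and nlp-16 lie near the bottom of the range. The value of nlp-16 was identical, 2.83, on all 3 phenylalanine-betaxanthin arrays and on indicaxanthin array 3, so these arrays give no spread for it. The difference of nlp-26 was 0.33 with a 95% interval of -0.43 to 1.10, and that of nlp-24 was 0.27 with an interval of -0.32 to 0.85. For these genes the test did not separate the compounds.

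Between indoline-betacyanin and indicaxanthin, 7 nlp genes were higher with the betacyanin and 1 was lower, against 9.78% and 4.42% of all tested clusters. Without indicaxanthin array 3 the counts were 11 and 3 (14.4% and 13.5% of all tested clusters). Without any 1 indoline-betacyanin array only 3 nlp genes passed. Without indoline-betacyanin array 1, 2 or 3, 1313, 1270 and 1253 of all tested clusters were higher and 387, 469 and 421 lower. With all arrays 1985 were higher and 897 lower. The largest differences with all arrays were those of nlp-18 (2.99, SE 0.70), nlp-46 (2.55, SE 0.46), nlp-13 (2.12, SE 0.54) and nlp-21 (2.03, SE 0.46). Without array 3 they were 2.01, 1.92, 1.33 and 1.39. The gene that was lower was nlp-16, with 1.84, 2.31 and 2.39, against 3.28, 3.34 and 2.83 with indicaxanthin (-0.97, SE 0.18; adjusted p = 0.00856 by limma). The arrays of these 5 genes did not overlap between the compounds, array 3 included. In all 14 nlp genes were higher without overlap and 1 was lower, against 17.4% and 13.6% of all tested clusters.

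Between the betaxanthins, which differ in the amino acid joined to betalamic acid, the result rested on indicaxanthin array 3. With it, 0 of 35 nlp genes and 0% of all tested clusters passed by limma, although 22 nlp genes had an unadjusted p under 0.05. The share of all tested clusters under that unadjusted p was not computed, so this count does not show that nlp genes stood out. The arrays did not overlap for 4 nlp genes lower and 1 higher with phenylalanine-betaxanthin (8.64% and 5.13% of all tested clusters). Without indicaxanthin array 3, 27 nlp genes were lower and 2 higher with phenylalanine-betaxanthin, against 28.5% and 26.6% of all tested clusters. The smallest p-values with all arrays were those of nlp-14 (-2.18), nlp-6 (-0.80), nlp-11 (-2.42), nlp-35 (-1.84) and nlp-18 (-2.07), with an adjusted p of 0.14 for all 5. Their differences without array 3 were -3.10, -1.05, -3.49, -2.71 and -3.04.

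Genes of related peptides did not all vary alike. Of the RPamide genes, named for the end of their peptides, nlp-2, nlp-22 and nlp-23 were near the bottom of the range on all arrays. They lay at 1.77 to 2.34, 1.11 to 1.72 and 1.37 to 1.91. RIA interneurons release the sleep peptide encoded by nlp-22, and this gene alone was below the level for testing. RefSeq places nlp-22, nlp-23 and nlp-2 next to each other. The genes nlp-2 and nlp-23 passed in 0 of the 6 comparisons by limma.

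All 3 orcokinin genes were lower with phenylalanine-betaxanthin than in controls and lower than with indoline-betacyanin. The levels of nlp-15 were 8.13, 7.93 and 7.82 with indoline-betacyanin, 4.66, 4.63 and 4.68 with phenylalanine-betaxanthin, 7.004, 7.44 and 4.46 with indicaxanthin, and 6.998 and 6.88 in controls. For nlp-8 they were 6.03, 5.86 and 5.96, then 2.52, 2.49 and 2.61, then 4.79, 5.05 and 2.37, against 4.83 and 4.64 in controls, with the groups in the same order. The changes of both genes with indoline-betacyanin against control, 1.02 and 1.22, did not pass with all arrays and passed without indicaxanthin array 3 (adjusted p = 0.000371 and 3.8e-05 by limma). The change of nlp-14 was 0.29 and did not pass there (adjusted p = 0.0831).

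Of the genes described in egg laying, nlp-7, which restrains it, had 7.22, 6.97 and 7.23 with phenylalanine-betaxanthin, against 8.84 and 8.71 in controls. It fell by 1.64 (SE 0.47; adjusted p = 0.0251 by limma). The gene nlp-3, which promotes egg laying from the HSN neurons, had 4.35, 3.96 and 3.82, against 4.93 and 4.97 in controls, and its change of -0.91 did not pass (adjusted p = 0.158). With indoline-betacyanin nlp-3 had 5.30, 6.10 and 5.88, a change of 0.81 against control that did not pass either (adjusted p = 0.348). Both genes passed in both comparisons without indicaxanthin array 3.

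Among genes with relatives in other animals, nlp-37 encodes a pigment-dispersing factor (PDF), which acts on the receptor PDFR-1 and alters locomotion. Its levels were 5.70, 5.56 and 5.57 with indoline-betacyanin, 2.29, 1.78 and 2.60 with phenylalanine-betaxanthin, 4.83, 6.03 and 2.38 with indicaxanthin, and 4.52 and 4.39 in controls. The difference between indoline-betacyanin and phenylalanine-betaxanthin was 3.39 (SE 0.74; adjusted p = 0.00701 by limma). The gene nlp-38, of a myoinhibitory peptide, differed by 3.40 (SE 0.53) between the same compounds. The gene nlp-47, of a peptide related to gonadotropin-releasing hormone, had levels of 2.31 to 3.11 over all arrays and passed in 0 of 6 comparisons.

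The peptide of nlp-40 is released by the intestine to time defecation. This gene had 9.27, 9.40 and 9.28 with indoline-betacyanin, 8.89, 8.94 and 8.99 with phenylalanine-betaxanthin, 9.37, 9.45 and 8.93 with indicaxanthin, and 9.24 and 9.40 in controls. Its change with phenylalanine-betaxanthin was -0.38 (95% interval -0.76 to 0.00; adjusted p = 0.0947 by limma). It did not pass with all arrays and passed without indicaxanthin array 3 (adjusted p = 0.021). The gene nlp-24, an opioid-like peptide gene described in feeding during starvation, had 10.40, 10.52 and 10.50, then 10.15, 10.18 and 10.29, then 10.995, 11.001 and 9.93, against 10.81 and 10.84 in controls, with the groups in the same order. It was called in 0 of 6 comparisons with all arrays and was lower against control with both indoline-betacyanin (-0.35) and phenylalanine-betaxanthin (-0.62) in the fit without indicaxanthin array 3.

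The remaining genes included several of low signal. The genes nlp-19 and nlp-39 lay between 1.36 and 2.21 on all arrays, nlp-25 between 2.36 and 3.48, and all 3 passed in 0 of 6 comparisons with all arrays. The gene nlp-36 had 8.61, 8.81 and 8.68 with indoline-betacyanin and 8.55, 8.33 and 8.59 with phenylalanine-betaxanthin, against 9.22 and 9.36 in controls. It fell with phenylalanine-betaxanthin by 0.80 (SE 0.26; adjusted p = 0.0351 by limma).

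Genes of the enzymes that make the peptides were among those lower with phenylalanine-betaxanthin. Of 11 processing genes 6 fell and 0 rose with phenylalanine-betaxanthin, against 22.3% of all tested clusters in each direction. The 6 were sbt-1 (-2.33), a chaperone of the convertase, pghm-1 (-2.10) and pgal-1 (-2.01), both of the amidation step, the carboxypeptidase gene egl-21 (-2.02), the convertase gene egl-3 (-1.94) and the convertase gene aex-5 (-1.44). With indoline-betacyanin kpc-1, a furin-like convertase gene, rose by 1.09 (SE 0.27; adjusted p = 0.0248 by limma) and 0 fell, against 7.97% and 9.37% of all tested clusters. The levels of egl-3 were 10.37, 10.10 and 10.14 with indoline-betacyanin and 7.05, 7.08 and 7.32 with phenylalanine-betaxanthin, against 9.02 and 9.17 in controls. Without indicaxanthin array 3, 9 processing genes fell with phenylalanine-betaxanthin (32.5% of all tested clusters did) and 8 rose with indoline-betacyanin (17.1%).

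Of 14 genes of dense core vesicle making and release, 3 rose and 0 fell with indoline-betacyanin, against 7.97% and 9.37% of all tested clusters. They were tbc-8 (2.51) and rund-1 (1.72), which act in the maturation of these vesicles, and the kinesin gene unc-104 (1.71), which carries vesicles along axons. With phenylalanine-betaxanthin 5 fell, among them ida-1 (-2.17), a vesicle membrane protein gene, and eipr-1 rose (1.99), against 22.3% of all tested clusters in each direction. With indicaxanthin array 3 left out the counts were 6 higher and 0 lower with indoline-betacyanin, against 17.1% and 18.2% of all tested clusters. They were 1 higher and 7 lower with phenylalanine-betaxanthin, against 28.5% and 32.5%.

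Of 30 tested peptide receptor genes 14 rose and 0 fell with indoline-betacyanin, against 7.97% and 9.37% of all tested clusters, and their median change was 0.69. In the fit without indicaxanthin array 3, 20 rose and 0 fell, against 17.1% and 18.2%. The receptor of the nlp-40 peptide, aex-2, had 4.14, 5.01 and 4.54 with indoline-betacyanin, against 2.16 and 2.19 in controls (2.39, SE 0.26; adjusted p = 0.000295 by limma). The PDF receptor gene pdfr-1 had 6.08, 6.01 and 5.85, against 4.29 and 4.49 (1.59, SE 0.24). A receptor of nlp-12 peptides, ckr-2, had 5.01, 4.79 and 5.24, against 3.27 and 3.21 (1.77, SE 0.40). The opioid-like receptor gene npr-17, which acts with nlp-24, rose by 1.76 (SE 0.19). With phenylalanine-betaxanthin pdfr-1 (-0.94) and egl-47 (-0.64) fell and tkr-3 (0.89) rose, where 22.3% of all tested clusters moved in each direction. The counts without indicaxanthin array 3 were 13 lower and 3 higher, against 32.5% and 28.5%.

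**Figure D5:**
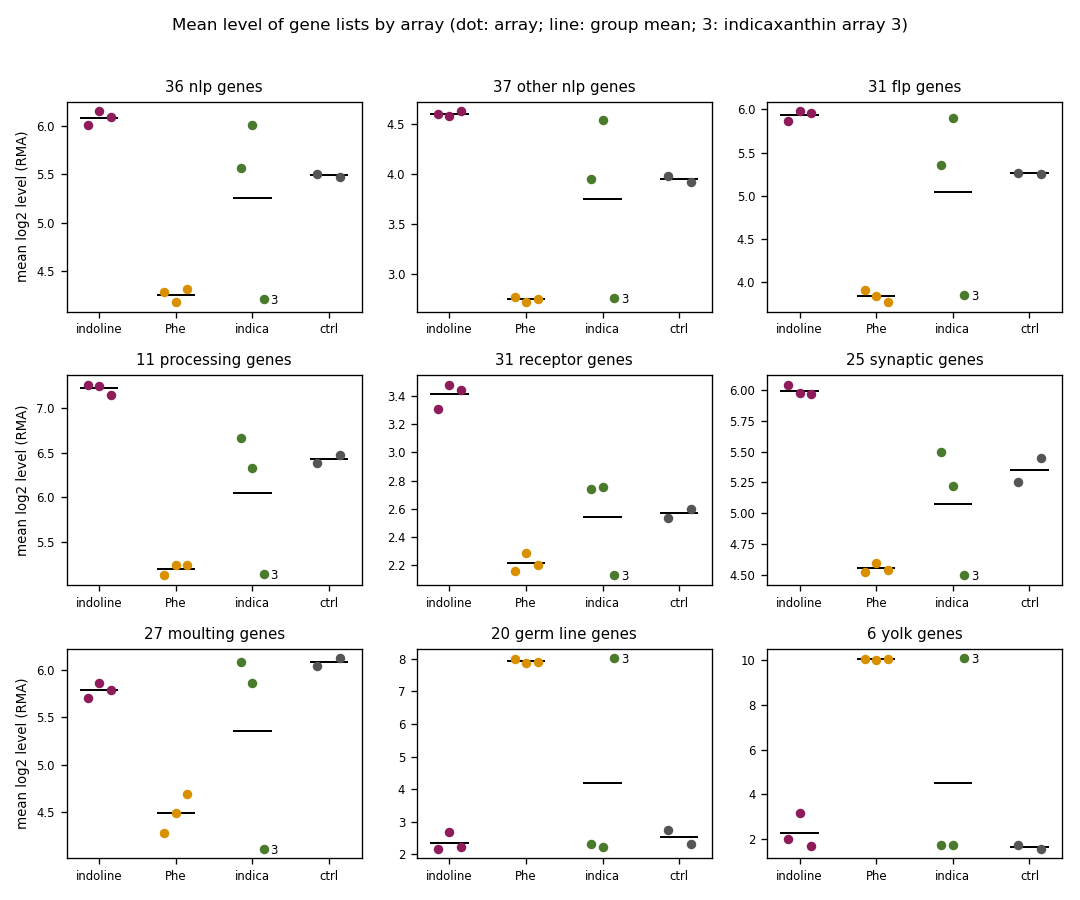
Mean log2 level (vertical axis, scale set per panel) of 9 gene lists on each array, by group, with a line at the group mean and the digit 3 beside indicaxanthin array 3. The 36 nlp genes lie at 6.02 to 6.15 with indoline-betacyanin and at 4.18 to 4.31 with phenylalanine-betaxanthin, and the germ line and yolk panels separate the phenylalanine-betaxanthin arrays and array 3 from the rest.

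Other neuropeptide genes were counted in the same way. A further 37 nlp genes are listed on the array under other names and carry an nlp number only in RefSeq. Of 34 tested, 3 rose and 2 fell with indoline-betacyanin, where 7.97% and 9.37% of all tested clusters did, and 15 fell and 0 rose with phenylalanine-betaxanthin, where 22.3% moved in each direction. In the fit without indicaxanthin array 3, 19 rose and 3 fell with indoline-betacyanin, and 23 fell and 0 rose with phenylalanine-betaxanthin. Among them nlp-49, described in arousal, was lower than control with both compounds, with changes of -1.68 (SE 0.36) with indoline-betacyanin and -1.71 (SE 0.36) with phenylalanine-betaxanthin, comparisons that share their controls. Of 31 FMRFamide-like peptide (flp) genes, 4 rose and 1 fell with indoline-betacyanin, and 14 fell and 0 rose with phenylalanine-betaxanthin. The flp counts without that array were 20 higher and 2 lower, and 21 lower and 0 higher. In that fit 17.1% of all tested clusters rose and 18.2% fell with indoline-betacyanin, and 28.5% rose and 32.5% fell with phenylalanine-betaxanthin. Whether these lists differ from the 36 nlp genes was not tested.

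The authors' deposited tables of their own comparisons rest on a control array that is not analysed here. Their sums of squares fit 3 treated and 3 control arrays for indoline-betacyanin and phenylalanine-betaxanthin, and 2 and 2 for indicaxanthin. The control level that the authors' deposited tables imply for the third array averaged 4.14 (from the table of indoline-betacyanin) or 4.10 (phenylalanine-betaxanthin) over the nlp genes. It was nearer to the phenylalanine-betaxanthin mean than to the 2 controls for 31 of 36 nlp genes. In the authors' deposited table of indoline-betacyanin 11 nlp genes were higher and 2 lower at an unadjusted p under 0.05, with nlp-46 at a log2 ratio of 3.31 (p = 1.21e-05) and nlp-6 at 1.95 (p = 0.0017). In the authors' deposited table of phenylalanine-betaxanthin nlp-5 was higher and nlp-46 lower at that level, and the 17 nlp genes that fell against the 2 controls were not among them. By the authors' deposited tables, the third control had nlp-46 at 2.10 or 2.04, near the 2 controls, and nlp-11 at 4.14 or 4.30, against 7.49 and 7.43 on the 2 controls. The authors' deposited table of indicaxanthin, which lists only clusters with a p under 0.05, held nlp-23, nlp-25 and nlp-46, all higher. The shares of all clusters under that p in the authors' deposited tables were not computed. These counts therefore do not show that nlp genes stood out there.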

How the data were processed

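RNA of whole animals was hybridised to Affymetrix arrays, from 3.5 ng per sample, per the labels' protocols. The authors' deposited matrix gives log2 values of 29317 transcript clusters on 11 arrays. Per the submitters' processing notes RMA was used, which corrects background, quantile-normalises and summarises probes. No source used here names the array model or annotation release. Per the file headers, the authors' tables give unadjusted p-values, linear ratios of treated over control and sums of squares (a score). Background correction could not be redone from summarised values, and arrays carry no counting error, so their number limits the precision.

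Gene names came from the authors' tables (27055 clusters). RefSeq coordinates were used only for the order of genes along a chromosome. The nlp genes were the clusters named nlp with a number, without nlp-27 to nlp-34, and the cluster of highest mean stood for a gene. They and all lists were chosen with earlier results of these data known, and the lists of renamed nlp, flp and ins genes were formed after the files had been read. Comparisons were fitted with limma 3.58.1 in R 4.3.3 (lmFit, eBayes, 4 group means, no covariate), with 7 residual and 1.93 prior degrees of freedom. Clusters with a mean above the 25th percentile of named clusters (1.52) were tested, and p-values were adjusted by Benjamini-Hochberg over these 20291 clusters at 0.05. The fit was tested on simulated data.

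Named with values were, against control, up to 8 nlp genes per direction of largest change that passed without overlap, or the 5 of smallest p where under 3 passed. Up to 4 per direction were named for pairs of compounds, with members of small functional groups and up to 4 genes of each pathway list of smallest p. The values of nlp-19, nlp-36, ckr-2, pghm-1, aex-5 and the genes of other peptide families were chosen after they had been seen. Alternatives were no filter or one at the median, trials as a block, more quantile normalization, median centring, array weights, eBayes with a trend and robust, the compared groups alone, several clusters of a gene averaged, and each array left out.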

Additional observations from a re-analysis of the deposited data

How the results depend on the processing

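Of 58 calls over the 35 tested nlp genes and 6 comparisons, 0 changed sign under any alternative run. With all arrays 7, 18 and 0 nlp genes passed with indoline-betacyanin, phenylalanine-betaxanthin and indicaxanthin against control. With indoline-betacyanin the count was 3 with a replicate block, 4 with no filter and 3 after a further quantile normalization. It was 21 with array weights and 22 in a fit of only the 2 groups. Of all tested clusters 1400 rose and 1527 fell with the block, 1712 and 2134 with no filter, and 1892 and 1598 after that normalization. The numbers were 3671 and 3788 with array weights, and 3608 and 3700 in the fit of only the 2 groups. With phenylalanine-betaxanthin 2 nlp genes passed with the replicate block, where 1650 of all tested clusters rose and 2008 fell. With indicaxanthin 2 nlp genes passed with array weights, where 305 of all tested clusters rose and 1404 fell. Between indoline-betacyanin and indicaxanthin 8 nlp genes passed, 17 with array weights and 1 in a fit of only the 2 groups. Of all tested clusters 1985 were higher and 897 lower, 2926 and 2653 with array weights, and 743 and 211 in that fit. Between phenylalanine-betaxanthin and indicaxanthin 0 nlp genes passed, and 29 with array weights. Of all tested clusters 0 passed, and 5452 were higher and 5855 lower with array weights. Leaving out 1 array in turn gave 2 to 23, 0 to 27 and 0 to 2 against control in the order above, 22 to 26 between indoline-betacyanin and phenylalanine-betaxanthin (25 with all arrays), 3 to 14 between indoline-betacyanin and indicaxanthin, and 0 to 29 between phenylalanine-betaxanthin and indicaxanthin. The highest of these counts came without indicaxanthin array 3 in all 6 comparisons, and the lowest of the first 2 without a control array. Counts of all tested clusters also differed with the array left out. Of 15 pairs of arrays with the same trial number, 1 had deviations from the group means that correlated over 0.1 (range -0.29 to 0.10). With groups of 2 or 3 arrays this check cannot decide whether the trial numbers pair the arrays. The deviations of the 2 controls, for example, are mirror images of each other. With the block 20 of the 58 calls were lost. Centring each array on its median moved the median change of all tested clusters from 0.02 to 0.18 with indoline-betacyanin, and the clusters called from 1617 higher and 1902 lower to 2387 and 1568. With phenylalanine-betaxanthin it moved from -0.05 to 0.10, and from 4517 higher and 4524 lower to 5534 and 3385. Against that shift 5 of the 58 calls were lost and 1 was gained. The causes were not tested.

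The limits are few arrays (2 controls, 3 per compound), a shared spread that 1 array widens, and whole animals. The groups also differ in yolk, germ line and moulting gene signal. The lowest nlp genes (nlp-2, nlp-5, nlp-16, nlp-19, nlp-22, nlp-23, nlp-39) lie near the bottom of the range.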

Other observations

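Among peptide genes outside the nlp genes described above, some differed from control with all 3 compounds, in comparisons that share the 2 control arrays. The gene nlp-28, of the antimicrobial cluster of the epidermis, had log2 levels of 8.48, 8.90 and 8.38 with indoline-betacyanin, 9.25, 9.47 and 9.30 with phenylalanine-betaxanthin, and 8.69, 9.11 and 9.33 with indicaxanthin, against 7.47 and 7.60 in controls. Its changes were 1.05, 1.80 and 1.505 (limma adjusted p = 0.0105, 0.000779 and 0.0028), and array 3 was the highest of the indicaxanthin arrays for this gene. The insulin-like peptide genes ins-38 and ins-3 were lower with each compound. For ins-38 the levels were 1.62, 1.45 and 1.68, then 1.51, 1.49 and 1.48, then 1.64, 1.64 and 1.59, against 2.71 and 3.03 in controls, with the compounds in the same order. For ins-3 they were 1.24 to 1.73 on the 9 treated arrays, against 2.73 and 2.54 in controls.

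Other insulin-like genes varied with the arrays of high yolk signal. The gene ins-35 had 3.11, 3.19 and 2.76 with phenylalanine-betaxanthin and 2.56 on indicaxanthin array 3, against 7.99 and 7.93 in controls. The gene ins-23 had 4.84, 4.37 and 4.73 and 4.51 on the same arrays, against 1.47 and 1.47. Of 32 tested ins genes 3 rose and 9 fell with phenylalanine-betaxanthin, where 22.3% of all tested clusters moved in each direction. Without indicaxanthin array 3, 4 rose and 14 fell, against 28.5% and 32.5% of all tested clusters. Of 9 genes listed for peptide breakdown (nep genes, dpt-1 and acn-1), nep-22 (-3.20) and nep-17 (-1.63) fell and nep-11 (1.07) rose with indoline-betacyanin. Of all tested clusters 9.37% fell and 7.97% rose. With phenylalanine-betaxanthin acn-1 (-3.10), nep-1 (-1.40) and nep-11 (-0.82) fell, where 22.3% of all tested clusters moved in each direction. Without indicaxanthin array 3, 2 were higher and 3 lower with indoline-betacyanin, against 17.1% and 18.2% of all tested clusters. With phenylalanine-betaxanthin 0 were higher and 5 lower in that fit, against 28.5% and 32.5%. Neprilysins, which the nep genes encode, cleave small peptides. Whether acn-1 has a part in peptide breakdown is not shown by these data.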
